A study of Rattus norvegicus with 24 samples.

Results

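ATF4 is the transcription factor at the centre of the integrated stress response, and 10 genes were followed here: Atf4 itself and 9 genes known as its targets, Ddit3, Asns, Trib3, Chac1, Sesn2, Gdf15, Fgf21, Psat1 and Mthfd2. They were chosen by name from a list of known targets, out of 22037 genes with a measurement of their own. Each was read from the transcript cluster (a set of probes summarised as 1 value) whose only platform gene symbol was that gene, and each had exactly 1 such cluster. In the hearts of metformin-treated rats none of the 10 passed the test against controls on day 1, day 3 or day 14, and their mean differences on the 3 days lay between -0.35 and 0.22 on the log2 scale. These ends came from Chac1 and Fgf21, the dimmest of the genes. Signals of 7 of the 10 lay near the median of an array, where a change may appear smaller than it is. Fgf21 was tested only in a fit without the filter on dim genes.

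The animals were male outbred Wistar rats (RccHan:WIST), 7 to 8 weeks old when assigned. They received metformin, a biguanide used against type 2 diabetes, at 800 mg/kg by gavage, or vehicle (ethanol, Kolliphor HS 15 and tap water) at 0 mg/kg. Dosing ran for 1, 3 or 14 consecutive days. RNA from the apex of the left ventricle was hybridised to 1-colour Affymetrix arrays, giving 24 arrays in 6 groups of 4, which the labels call biological replicates. The submitters state 5 animals for each group, and 4 arrays for each are analysed here. All rats ate standard chow, and no allele or further agent is named for any group. Days were separate sets of animals, and the question the design poses for these genes is whether their transcripts differed between treated and control hearts at any of the 3 times.

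In the integrated stress response, kinases that sense amino acid shortage, unfolded protein, double-stranded RNA, haem lack or mitochondrial stress phosphorylate the initiation factor eIF2. General protein synthesis then drops while the Atf4 messenger RNA is translated more, and ATF4 switches on genes for amino acid supply, one-carbon metabolism, redox balance and cell fate. Metformin is known to inhibit mitochondrial respiratory complex I, and mitochondrial stress is one of the triggers of this response, with GDF15 and FGF21 as secreted outputs known from muscle and heart. The arrays measure messenger RNA and not ATF4 protein or its activity.

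ATF4 binds with C/EBP proteins to a composite element, the C/EBP-ATF response element, searched here as TGATGNAAN on both strands. In RefSeq promoter windows of build GRCr8, from 250 bases before to 50 after a transcript start, 3.97% of all 33469 windows held a match. All 10 genes had a window, with 11 windows among them, and 3 of the genes (Trib3, Chac1 and Fgf21) held a match. The share of 3.97% counts windows and not genes. The sites are shown because ATF4 is known to bind this element, and binding was not measured here. Each line gives the gene strand from 5′ to 3′, with the element in capitals and 10 bases on either side. In each case the match was to the other strand, so the capitals read as its reverse complement.
Trib3, chr3:161275537-161275565, minus strand: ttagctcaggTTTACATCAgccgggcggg
Chac1, chr3:126795953-126795981, plus strand: cttctccgccGTTGCATCActcctgctag
Fgf21, chr1:105221502-105221530, minus strand: agacccccccATTGCATCAttcgtccagg
The element lay from -22 to -14 in Trib3, from -168 to -160 in Chac1 and from -144 to -136 in Fgf21, counted from the transcript start. A plain cyclic AMP response element, TGACGTCA, was found in none of the 10 genes' windows and in 1.83% of all windows. A match describes the sequence only, and the absence of a match says only that these letters are not in the window.

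Most of these genes gave dim signals in the heart. The median of an array over all 68842 clusters lay between 4.68 and 4.95 (log2 of the deposited intensity), and 7 of the 10 genes had a mean less than 1 above it. Atf4 stood 4.12 above the array median and Ddit3 3.32, and Sesn2 stood 1.82 above it. The other 7 lay near it, at 0.84 for Asns, 0.75 for Trib3, 0.66 for Mthfd2, 0.35 for Psat1, 0.31 for Gdf15, -0.28 for Chac1 and -0.65 for Fgf21. The test took in genes whose signal exceeded the array median on 4 arrays or more, which held for 9 of the 10. Chac1 passed on 5 arrays only, Gdf15 was above on 23, and Fgf21 was above the median on 0 of 24 arrays and was tested only in a fit without this filter. A cluster near the array median has little signal of its own, so a change in its transcript may appear smaller than it is.

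The tissue label was checked against markers, and 7 measured cardiomyocyte genes (Myl2, Tnnt2 and others) had means from 13.4 to 19.9. Skeletal muscle markers were high on 1 array, replicate 4 of the day 1 controls, with a marker score (mean log2 value after centring each gene) of 1.58 against at most 0.16 on the other 23. Erythroid markers scored 0.28 to 1.30 in day 1 controls and -0.64 to 0.45 in day 1 metformin hearts, and reached 1.45 in replicate 2 of the day 3 controls. Atrial markers reached 1.43 in replicate 4 of the day 3 metformin hearts. Cardiomyocyte scores were lower with metformin on day 1, without overlap, at -0.0237 to -0.012 against -0.0041 to 0.0226 in controls. The part of these markers in the results was not tested, apart from refits for skeletal muscle and erythroid markers. Correlations between arrays ran from 0.984 to 0.992. In bulk tissue, fewer cells of a type and less RNA per cell cannot be told apart. Differences below are metformin minus control in log2 units from a limma fit to all 24 arrays, with a standard error (SE), a 95% interval and a p adjusted over the 16031 genes tested.

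The plot of values by heart shows how far the arms overlapped for each gene.

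**Figure D1:**
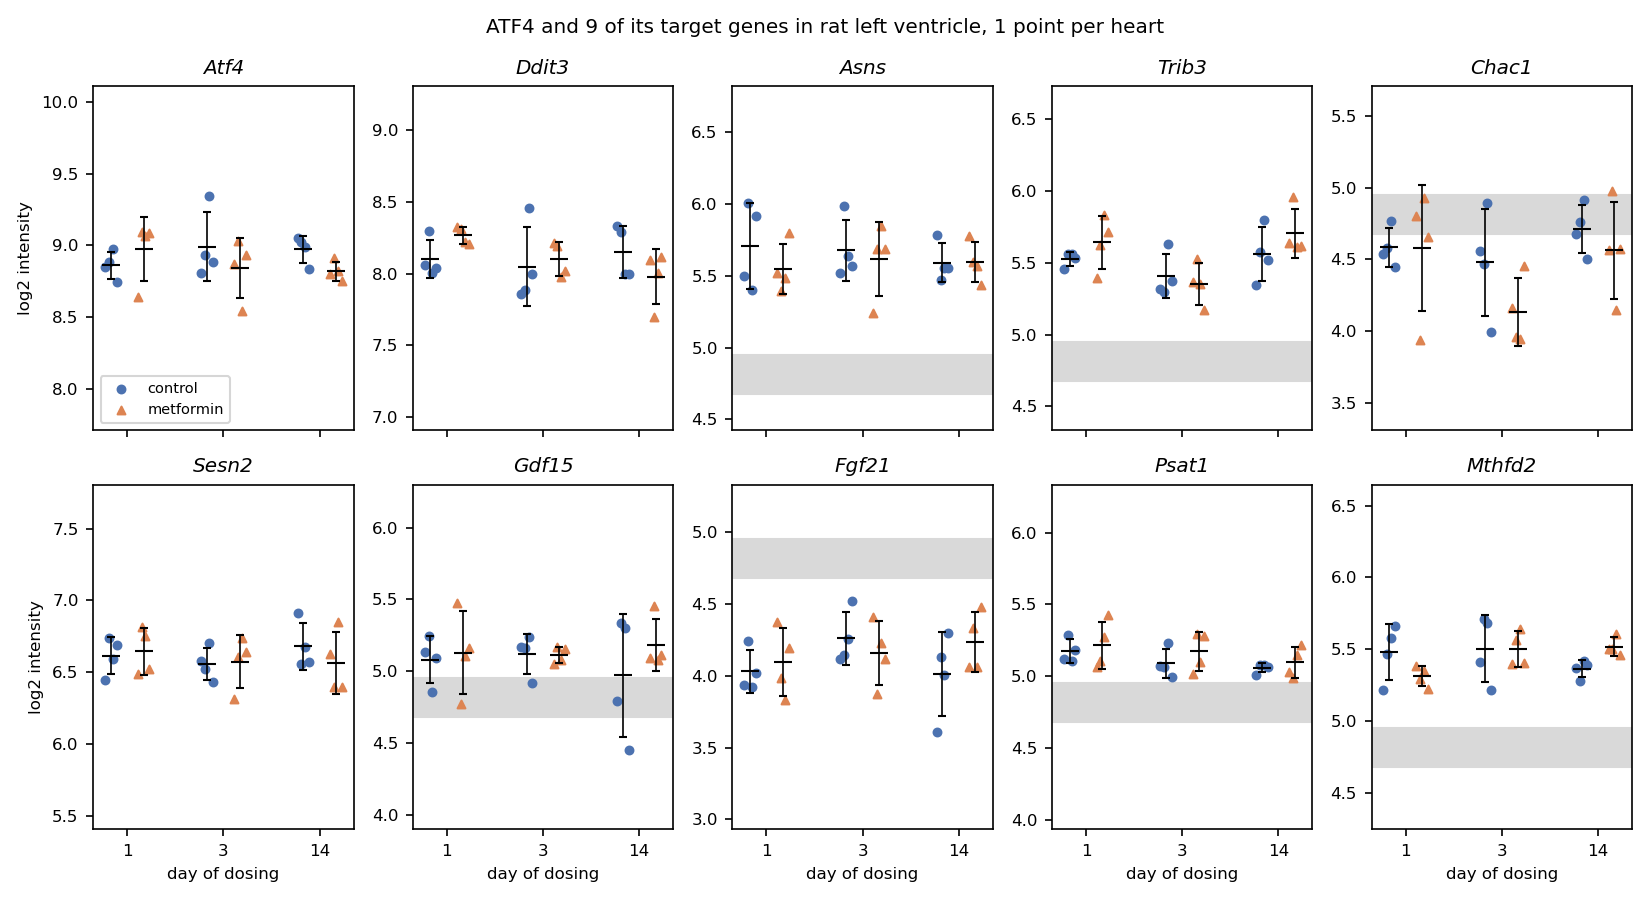
Log2 intensity of Atf4 and 9 of its target genes (y axis, of equal height in all panels) by day of dosing (x axis). Each point is 1 heart, circles for control and triangles for metformin, with the group mean and SD as bars. The grey band is the range of array medians, 4.68 to 4.95. Atf4, Ddit3 and Sesn2 lie well above the band, Chac1 and Gdf15 reach into it, and Fgf21 lies below it.

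Atf4 encodes the transcription factor of the response. On day 1 its 4 controls stood at 8.85, 8.88, 8.97 and 8.74, and its 4 metformin hearts at 8.64, 9.10, 9.07 and 9.09. On day 3 controls stood at 8.81, 8.93, 9.34 and 8.89 and metformin hearts at 8.87, 9.03, 8.54 and 8.94. On day 14 controls stood at 9.05, 9.02, 8.99 and 8.83 and metformin hearts at 8.80, 8.91, 8.82 and 8.75. The arms overlapped on each day, with 1 low metformin heart on day 1 and 1 high control on day 3. The difference was 0.11 on day 1, -0.15 on day 3 and -0.15 on day 14 (SE 0.12 each), with adjusted p of 0.940, 0.713 and 0.634. With 1 array left out it ran from 0.07 to 0.22, from -0.21 to -0.03 (without control replicate 3) and from -0.20 to -0.13. On day 14 it was -0.25 after every array was centred on its median and -0.07 after a second quantile normalization. The mean over the 3 days was -0.06, with a 95% interval from -0.20 to 0.08, which is 0.869-fold to 1.05-fold.

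Ddit3 encodes CHOP, a transcription factor that ATF4 induces and that acts in cell death during prolonged stress. It read 8.06, 8.29, 8.00 and 8.04 in day 1 controls and 8.33, 8.31, 8.22 and 8.20 in day 1 metformin hearts. On day 3 it read 7.86, 7.89, 8.45 and 8.00 against 8.21, 8.19, 7.98 and 8.02 with metformin, and on day 14 8.33, 8.29, 8.00 and 7.99 against 8.10, 7.70, 8.00 and 8.11. On day 1, 3 of 4 controls lay below every metformin heart and the fourth within their range, while on day 14 the group mean was lower with metformin. The difference was 0.17 on day 1 (interval -0.08 to 0.41, adjusted p = 0.883), 0.05 on day 3 and -0.17 on day 14 (interval -0.42 to 0.07, adjusted p = 0.584), with an SE of 0.12. With 1 array left out these ran from 0.13 to 0.23, from -0.01 to 0.19 (without control replicate 3) and from -0.23 to -0.08. The day 14 difference was -0.27 after every array was centred and -0.11 after a second quantile normalization. The test of a treatment effect that differed between days gave Ddit3 an unadjusted p of 0.148 and an adjusted p of 0.993.

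Trib3 encodes a pseudokinase that is induced by ATF4 and CHOP and restrains ATF4 in turn. Its day 1 controls were close together at 5.45, 5.56, 5.56 and 5.53, and its day 1 metformin hearts spread over 5.39, 5.62, 5.83 and 5.72. Day 3 was the low day in both arms, with controls at 5.32, 5.30, 5.63 and 5.37 and metformin hearts at 5.37, 5.53, 5.35 and 5.17. On day 14 controls stood at 5.34, 5.58, 5.80 and 5.52 and metformin hearts at 5.63, 5.96, 5.61 and 5.62. The treatment differences were 0.11, -0.05 and 0.14 on the 3 days (SE 0.11), with adjusted p of 0.931, 0.923 and 0.621. With 1 array left out they ran from 0.05 to 0.20, from -0.11 to 0.02 and from 0.06 to 0.22. Over all 6 groups, from a mean of 5.35 in day 3 metformin hearts to 5.71 in day 14 metformin hearts, Trib3 had the smallest p of the 9 genes tested, at 0.0297 unadjusted and 0.233 adjusted over all genes.

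Asns, Psat1 and Mthfd2 are enzymes of the metabolic arm. Asns, asparagine synthetase, stood at 5.50, 6.01, 5.40 and 5.92 in day 1 controls and 5.52, 5.40, 5.49 and 5.80 in day 1 metformin hearts. On day 3 it stood at 5.52, 5.98, 5.64 and 5.57 against 5.24, 5.69, 5.85 and 5.68 with metformin, and on day 14 at 5.79, 5.47, 5.56 and 5.55 against 5.78, 5.60, 5.57 and 5.43. On day 1 the controls fell into a higher and a lower pair, and the arms overlapped on each day. Its difference was -0.16 on day 1 (SE 0.14, adjusted p = 0.924), -0.06 on day 3 and 0.00 on day 14. Once erythroid marker level entered the fit, the day 1 difference had the other sign, 0.06. Psat1, the transaminase of serine synthesis, stood at 5.12, 5.29, 5.10 and 5.18 in day 1 controls and 5.06, 5.10, 5.27 and 5.42 with metformin. On day 3 it stood at 5.07, 5.07, 5.23 and 4.99 against 5.01, 5.30, 5.10 and 5.28, and on day 14 at 5.01, 5.08, 5.08 and 5.07 against 5.03, 4.99, 5.15 and 5.22. It had the narrowest intervals of the 10 genes, with differences of 0.04, 0.08 and 0.04 (SE 0.08) and a mean over days of 0.05 (interval -0.05 to 0.15). It was above the array median on all 24 arrays, and its arms overlapped on each day.

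Mthfd2 encodes the mitochondrial folate dehydrogenase of one-carbon metabolism. Day 1 controls stood at 5.22, 5.47, 5.58 and 5.66 and metformin hearts at 5.38, 5.29, 5.35 and 5.22, a difference of -0.17 (SE 0.10, adjusted p = 0.830). On day 3 controls stood at 5.41, 5.71, 5.68 and 5.21 and metformin hearts at 5.40, 5.56, 5.64 and 5.40, a difference of -0.00. On day 14 controls stood at 5.36, 5.28, 5.41 and 5.39 and metformin hearts at 5.50, 5.50, 5.61 and 5.46. All 4 treated hearts thus lay above all 4 controls on day 14, and Mthfd2 was the only one of the 10 genes, on any of the 3 days, whose arms did not overlap. Among all genes tested, 6.13% had arms without overlap on day 14, 1.6% with metformin higher and 4.53% lower. On day 1 these shares were 4.56%, 1.76% and 2.8%, and on day 3 they were 6.37%, 2.17% and 4.2%, with 0 of the 10 genes on either day. The day 14 difference was 0.15 (interval -0.05 to 0.36, unadjusted p = 0.138, adjusted p = 0.553), and it was 0.05 after every array was centred. Mthfd2 also had the smallest p of the 9 tested genes in the test of treatment by day, 0.0968 unadjusted and 0.993 adjusted.

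Sesn2 and Chac1 act in nutrient and redox control. Sesn2 encodes sestrin 2, which holds back the growth kinase complex mTORC1 when leucine is low. It stood at 6.44, 6.74, 6.59 and 6.69 in day 1 controls and 6.49, 6.82, 6.75 and 6.52 with metformin. On day 3 it stood at 6.58, 6.53, 6.70 and 6.43 against 6.31, 6.60, 6.74 and 6.64, and on day 14 at 6.91, 6.55, 6.68 and 6.57 against 6.62, 6.39, 6.85 and 6.40. The arms overlapped on each day, and Sesn2 had the smallest spread of group means among the 10 genes. Its 6 group means ran from 6.56 to 6.68, and its differences were 0.03, 0.01 and -0.11 on days 1, 3 and 14 (SE 0.11). Chac1 encodes an enzyme that breaks down glutathione. On day 3 its controls stood at 4.56, 4.47, 4.89 and 3.99 and its metformin hearts at 4.16, 3.96, 3.95 and 4.46, the largest mean difference among the 10 genes on a single day at -0.35 (SE 0.20, adjusted p = 0.565). The arms overlapped through the lowest control, and the interval ran from -0.76 to 0.07. Without control replicate 4 of that day the difference was -0.51 and without control replicate 3 -0.21, neither past the threshold. On day 1 its controls stood at 4.54, 4.58, 4.77 and 4.45 and its metformin hearts at 4.80, 3.94, 4.93 and 4.65, a difference of -0.00. On day 14 controls stood at 4.68, 4.76, 4.91 and 4.51 and metformin hearts at 4.56, 4.98, 4.15 and 4.57, a difference of -0.15, with metformin hearts the more spread on both days. With 1 array left out the day 1 difference ran from -0.12 to 0.21 (without metformin replicate 2) and the day 14 difference from -0.29 to -0.01 (without metformin replicate 3).

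Gdf15 and Fgf21 encode secreted hormones of the response, GDF15 acting on the hindbrain to lower food intake and FGF21 on metabolism. Gdf15 stood at 5.13, 5.25, 4.85 and 5.09 in day 1 controls and 5.48, 4.77, 5.11 and 5.16 in day 1 metformin hearts. On day 3 controls stood at 5.17, 5.16, 5.23 and 4.92 and metformin hearts at 5.05, 5.16, 5.08 and 5.15. On day 14 controls stood at 4.79, 5.33, 5.30 and 4.45 and metformin hearts at 5.09, 5.46, 5.08 and 5.11. The day 14 controls fell into a higher and a lower pair, with the metformin hearts between and above them. The Gdf15 difference was 0.05 on day 1, -0.01 on day 3 and 0.21 on day 14 (SE 0.16, interval -0.12 to 0.55, adjusted p = 0.623), and on day 14 it was 0.04 without control replicate 4 and 0.34 without control replicate 2. Fgf21 stood at 3.94, 4.24, 3.92 and 4.02 in day 1 controls and 4.38, 3.98, 3.83 and 4.19 with metformin. On day 3 it stood at 4.12, 4.15, 4.25 and 4.52 against 4.41, 3.87, 4.23 and 4.12, and on day 14 at 3.61, 4.13, 4.01 and 4.30 against 4.06, 4.34, 4.06 and 4.48. All 24 values lay under the lowest array median and the arms overlapped on each day. In the unfiltered fit its differences were 0.07, -0.10 and 0.22 (SE 0.15), and the day 14 value had an adjusted p of 0.576. At signals this low the values cannot show whether the Fgf21 transcript differed.

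Counted together, 0 of the 9 tested genes passed at an adjusted p under 0.05 in any of the 7 comparisons, and at an unadjusted p under 0.05 only Trib3 did, over all 6 groups. The shares of all tested genes that passed were 0% on day 1, 0.474% on day 3, 0.281% on day 14 and 4.42% in the test of the mean over days. By direction, 0.0499% of genes rose and 0.424% fell on day 3, 0.0125% and 0.268% on day 14, and 0.649% and 3.77% for the mean of days. The shares were 0% for treatment by day, 0.162% among control days and 2.49% over the 6 groups. At an unadjusted p under 0.05, where 0 of the 9 passed in each treatment comparison, the shares of all tested genes were 6.72%, 11.2% and 12.7% on the 3 days and 18.3% for the mean of days. For treatment by day, control days and all 6 groups these shares were 4.95%, 8% and 16.7%, and the 9 genes gave 0, 0 and 1. With so few genes, a count of 0 is near these background shares.

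The differences with metformin were positive for 7, 3 and 6 of the 10 genes on days 1, 3 and 14, and the medians were 0.05, -0.03 and 0.02 against -0.00, -0.01 and -0.02 for all tested genes. Among the 9 tested genes 6, 3 and 5 were positive as deposited, 6, 3 and 3 after a second quantile normalization and 5, 3 and 3 after every array was centred. All 10 intervals lay inside a 2-fold change in either direction on each day. All lay inside 1.5-fold on days 1 and 14, and 9 did on day 3, where Chac1 was the exception. The highest upper bound was 1.33-fold for Ddit3 on day 1, 1.25-fold for Gdf15 on day 3 and 1.46-fold for Gdf15 on day 14. For the mean of days the highest upper bound was 1.21-fold, for Gdf15, and the lowest lower bound 0.754-fold, for Chac1. These bounds concern the deposited intensities. For the 7 genes near the array median, a small change in intensity may stand for a larger one in RNA.

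**Figure D2:**
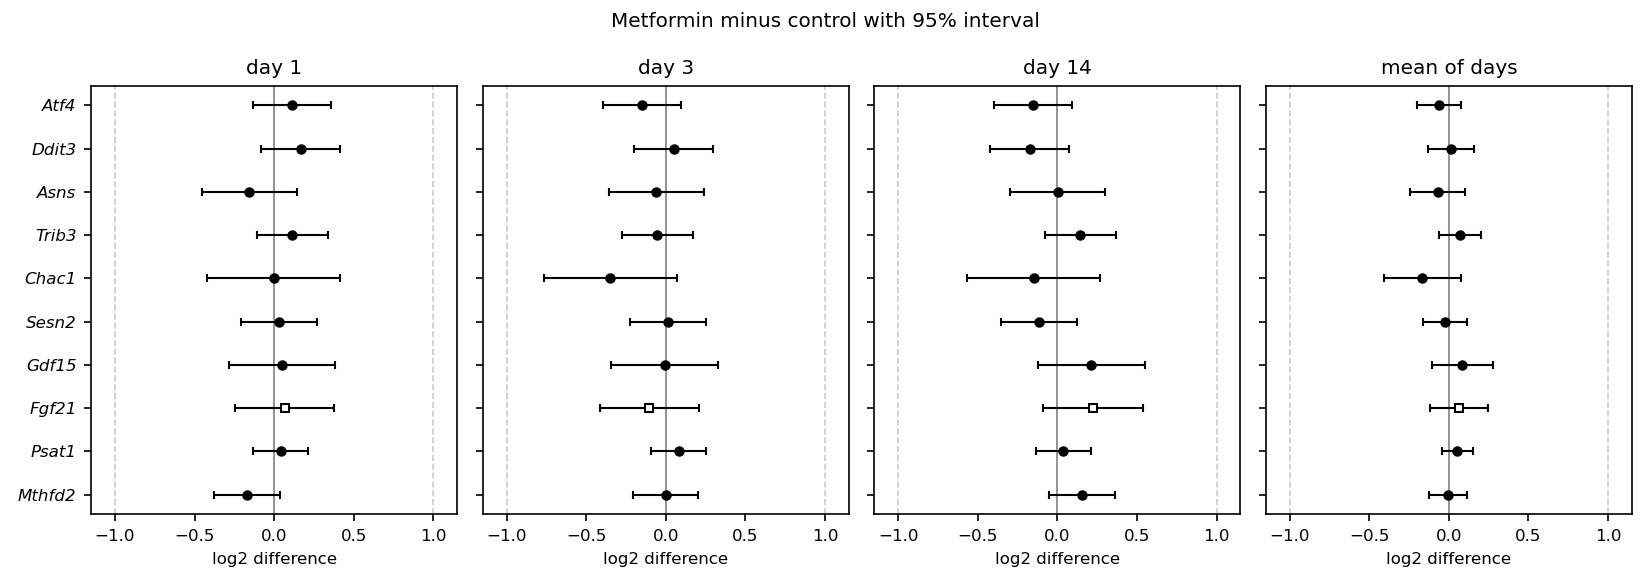
Difference in log2 intensity, metformin minus control, for each gene on the 3 days and as their mean (x axis), with 95% intervals from the limma fit. Dashed lines mark a 2-fold change, and the open square marks Fgf21, tested without the filter on dim genes. Every interval spans 0 and stays inside the dashed lines.

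The measured values of the 10 genes mostly did not vary together from heart to heart. Over the 24 arrays, 24 of the 45 pairs had a positive Pearson correlation and the median was 0.04, with 0 pairs above 0.5. The highest were Trib3 with Chac1 (0.46), Atf4 with Ddit3 (0.44) and Asns with Mthfd2 (0.42), and the lowest was Sesn2 with Fgf21 (-0.66). The genes outside the 10 whose values were most like those of Atf4 were Foxk2 (0.74), Etv3 (0.73), Usp36 (0.73), Srf (0.72) and Itsn2 (0.71). For the mean of the 9 tested genes they were Dap (0.71), Pmepa1 (0.71), Nfkb2 (0.69), Ckap2l (0.69) and Ptbp1-ps3 (0.69). These are descriptions over 24 arrays that share their scaling, with no test. For the 7 genes near the array median, Fgf21 among them, dim signal limits what a correlation can show. Pairs of other genes were not examined for comparison.

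The control hearts did not separate by day in these genes either. Among the 9 genes tested with the filter, the smallest unadjusted p for control days was 0.341, for Trib3 and Mthfd2 alike, with adjusted p of 0.895. Fgf21 had 0.205 unadjusted and 0.904 adjusted in the unfiltered fit. Control means of Atf4 were 8.86, 8.99 and 8.97 on days 1, 3 and 14, those of Ddit3 8.10, 8.05 and 8.15, and those of Trib3 5.53, 5.41 and 5.56. In metformin hearts the Ddit3 means were 8.27, 8.10 and 7.98, and the Chac1 means 4.58, 4.13 and 4.56. The SDs within groups reached 0.28 for Ddit3 and 0.44 for Chac1, and steps between days within the metformin arm were not tested alone.

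A further 80 genes of the pathway were read from 8 lists by role, of which 79 were measured and 77 tested. Of the 77, 0 passed on days 1 and 14. On day 3, 1 fell. In the mean of days 2 passed, of which 1 rose and 1 fell. These counts make 1.3% for day 3 and 2.6% for the mean of days, beside the 0.474% and 4.42% of all tested genes. The plot of list medians shows how little each list stood from 0 on a day.

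**Figure D3:**
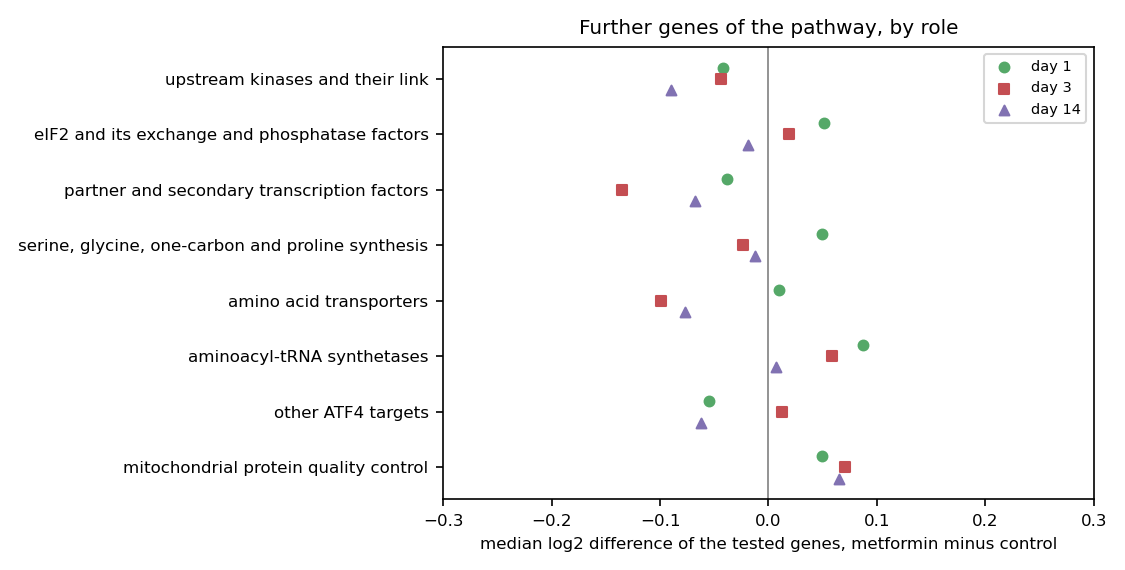
Median difference in log2 intensity, metformin minus control (x axis), of the tested genes of each list (y axis) on days 1, 3 and 14. The medians lie between -0.13, for partner transcription factors on day 3, and 0.09, for aminoacyl-tRNA synthetases on day 1.

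Among upstream genes, the 6 of the eIF2 kinase list (Eif2ak1 to Eif2ak4 with Dele1 and Oma1, which relay mitochondrial stress) had 0 called in each comparison. On days 1, 3 and 14, 1, 2 and 0 of the 6 were higher with metformin, and in the mean of days 0. After a second quantile normalization these counts were 3, 2, 2 and 4, and after every array was centred 0, 2, 0 and 0. Dele1 had the smallest p for the mean of days, with a difference of -0.14 (SE 0.05, adjusted p = 0.112). Of 10 genes for eIF2, its exchange factor and its phosphatase, 1 fell and 0 rose both on day 3 and in the mean of days, and 9 did not pass. The gene that fell was Ppp1r15a, which encodes GADD34, the stress-induced subunit that directs a phosphatase to eIF2 and so ends the response. Ppp1r15a is itself known as an ATF4 target.

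Ppp1r15a stood at 6.18, 6.25, 6.60 and 6.27 in day 3 controls and at 5.55, 5.90, 5.39 and 5.69 in day 3 metformin hearts, with no overlap. On day 14 controls stood at 6.33, 6.35, 6.56 and 6.26 and metformin hearts at 5.58, 5.85, 6.26 and 5.78, and on day 1 controls at 6.27, 6.33, 5.91 and 5.64 and metformin hearts at 6.16, 6.01, 5.93 and 5.94. The arms thus stood apart on day 3, did not overlap on day 14 either, though by a margin lost in rounding, and overlapped on day 1. Mast cell markers (5 of 5 measured, gene means 4.10 to 7.76) also stood higher in metformin hearts on day 3, with scores of 0.09 to 0.49 against -0.26 to 0.10 in controls, and their part in this result was not tested. It fell by 0.69 on day 3 (SE 0.15, adjusted p = 0.0359) and by 0.41 in the mean of days (SE 0.09, interval -0.59 to -0.23, adjusted p = 0.00842), and its difference on day 14 was -0.51 (adjusted p = 0.130). The call for the mean of days held under each of 32 alternative settings, with adjusted p up to 0.0338, but on day 3 leaving out any 1 of 7 of the 8 arrays ended the call (adjusted p 0.0526 to 0.112) while the difference stayed at -0.60 to -0.74. On day 1 the group means were close, 6.04 in controls and 6.01 with metformin, so the mean of days takes in a day with little difference. The test of a treatment effect that differed between days gave Ppp1r15a an unadjusted p of 0.0139 and an adjusted p of 0.926. In that test 4.95% of all tested genes had an unadjusted p under 0.05.

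**Figure D4:**
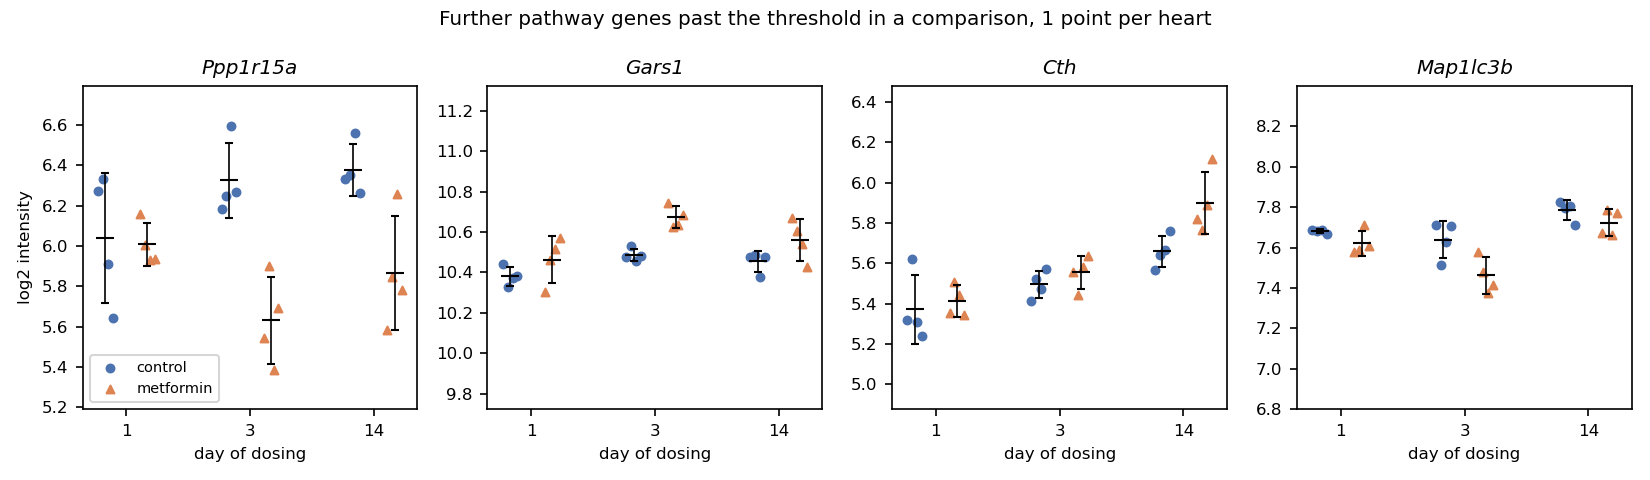
Log2 intensity (y axis, of equal height in all panels) of the further pathway genes past the threshold in at least 1 comparison, by day of dosing (x axis). Each point is 1 heart, circles for control and triangles for metformin, with the group mean and SD. Ppp1r15a is lower in metformin hearts on days 3 and 14, and the group mean of Cth is higher on day 14 than on day 1 in both arms.

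Of 7 partner and secondary transcription factors (Atf3, Atf5, Cebpb, Cebpg, Nupr1, Jdp2 and Nfe2l2) 0 passed in any comparison. On day 3, 2 were higher and 5 lower with metformin, and in the mean of days 1 was higher and 6 lower. Jdp2, which was 0.39 higher on day 3 (SE 0.13), had an adjusted p of 0.197. Nfe2l2 differed by -0.13 for the mean of days (SE 0.05, adjusted p = 0.185). Of 9 tested genes of serine, glycine, one-carbon and proline synthesis 0 passed. Phgdh, the first enzyme of serine synthesis, differed by 0.14 on day 14 (SE 0.05, adjusted p = 0.262), and Aldh1l2, a mitochondrial folate enzyme, by 0.10 for the mean of days (adjusted p = 0.151). On day 14, 4 of the 9 genes were higher and 5 lower. Phgdh lay near the array median, with day 14 means of 4.99 in controls and 5.13 with metformin. Centring moved the median difference of all tested genes by -0.10 on that day.

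Of 8 tested amino acid transporters 0 passed. On days 1, 3 and 14, 4, 2 and 1 of the 8 were higher with metformin. These counts were the same after a second quantile normalization, and 3, 2 and 1 after every array was centred. Slc38a1, a glutamine transporter, differed by 0.41 on day 1 (SE 0.10, adjusted p = 0.313), Slc38a2, which is induced by amino acid shortage, by -0.32 on day 3 (SE 0.09, adjusted p = 0.126), and Slc3a2, the heavy chain of several transporters, by -0.27 on day 14 (SE 0.08, adjusted p = 0.130, or -0.36 and 0.0478 after every array was centred). For the mean of days Slc3a2 differed by -0.15 (adjusted p = 0.0603), a value that passed after every array was centred (-0.20, adjusted p = 0.0238).

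Aminoacyl-tRNA synthetases, which load amino acids onto transfer RNA, had 12 of 12 differences above 0 on day 1, 9 on day 3 and 7 on day 14, with 48.4%, 48.4% and 44.8% of all tested genes above 0. After every array was centred these counts were 11, 9 and 4, and after a second quantile normalization 12, 10 and 10. For the mean of days 1 rose, 0 fell and 11 did not pass. Gars1, glycyl-tRNA synthetase, rose by 0.13 (SE 0.04, adjusted p = 0.0462), with day 3 means of 10.49 ± 0.03 in controls and 10.67 ± 0.05 with metformin (SD, n = 4). Leaving out any 1 of 22 of the 24 arrays ended that call (adjusted p 0.0508 to 0.0866, difference 0.11 to 0.13), and so did centring, where the difference was 0.08 (adjusted p = 0.399).

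Of 17 further genes, listed here as ATF4 targets without a test of that role, 0 passed in the treatment comparisons. On days 1, 3 and 14, 8, 9 and 6 of the 17 were higher with metformin. These counts were 9, 8 and 7 after a second quantile normalization and 6, 9 and 2 after every array was centred. Ddit4, an mTORC1 inhibitor also induced by glucocorticoids, differed by -0.89 on day 1 (SE 0.27, adjusted p = 0.497), and Sesn1, a relative of Sesn2, by -0.44 on day 14 (SE 0.13, adjusted p = 0.141). For the mean of days Sesn1 differed by -0.25 (adjusted p = 0.0678). That value passed after every array was centred (-0.30, adjusted p = 0.0277). It also passed without day 3 control replicate 3 (0.0253) or day 14 metformin replicate 4 (0.0431). Over the 6 groups 2 of the 17 passed, Cth and Map1lc3b. With Ppp1r15a these were 3 of the 77 further genes, or 3.9%, beside 2.49% of all tested genes. Cth, cystathionine gamma-lyase of cysteine synthesis, had control means of 5.37, 5.50 and 5.66 and metformin means of 5.41, 5.55 and 5.90 on days 1, 3 and 14 (adjusted p = 0.00637), a call that held under each of 32 settings. Its signal was dim, with a mean less than 1 above the array median. In the test of control days Cth did not pass (unadjusted p = 0.00777, adjusted p = 0.396). Map1lc3b, the autophagosome protein LC3B, had control means of 7.68, 7.64 and 7.78 and metformin means of 7.62, 7.46 and 7.72 (adjusted p = 0.0303), and was lost without any 1 of 6 arrays (adjusted p 0.0587 to 0.0929). Ppp1r15a passed there too (adjusted p = 0.0308), and was lost without any 1 of 7 arrays (0.0514 to 0.0784).

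Mitochondrial chaperones and proteases, 8 genes that serve the organelle's own protein quality control, had 0 called. Their differences were above 0 for 8, 7 and 6 of 8 on the 3 days, for 5, 7 and 2 after every array was centred, and for 8, 5 and 6 after a second quantile normalization. Hspe1, the small mitochondrial chaperonin, differed by 0.27 on day 3 (SE 0.09, adjusted p = 0.199) and by 0.16 as the mean over days (adjusted p = 0.0790), and Afg3l2, an inner membrane protease, by 0.26 on day 1 (SE 0.10, adjusted p = 0.666).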

How the data were processed

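Hearts of 24 rats were measured on 1 array each. The authors deposited 1 normalized intensity value per array and transcript cluster. The submitters' processing notes name RMA, with software and settings not given in the sources used here. The values are linear and above 0, and each array's highest lay between 999433 and 999974, so the scale is not the scanner's and fold changes may be stretched. Log2 was taken first. Of 68842 clusters, 23446 had 1 gene symbol, 505 several and 44891 none. Current symbols came from RefSeq's gene table for GRCr8 (22077 clusters by gene ID, 1227 by symbol, 127 by synonym, 15 kept). Where a gene had several clusters the brightest was taken.

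All 24 arrays entered 1 limma 3.58.1 fit in R 4.3.3, with a mean for each group and Benjamini-Hochberg adjustment over 16031 genes. Tested were the treatment differences by day, their mean, and moderated F statistics for treatment by day, control days and all 6 groups. The procedure was tested on simulated data. The number of arrays limits the precision. Neither slide nor scan date is given in the sources used here, so batches were not examined. The members, lists, tests and alternatives were chosen with earlier results of these data known. All 10 members were named, and from each list the called genes (up to 4) or else the gene with the smallest p in a comparison, of which not all are printed. Alternatives were no filter, repeat quantile normalization, centring on the array median over all clusters, the mean of a gene's clusters, an intensity trend, single-day fits, a replicate block, an erythroid covariate and leaving out arrays.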

Additional observations from a re-analysis of the deposited data

Results flagged for a closer look

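In 3 of 60 sets of 4 hearts (10 genes in 6 groups), 1 heart stood apart from the other 3 by a gap, relative to the whole range, above Dixon's 95% critical value, where chance gives about 3. Atf4 read 8.64 in metformin replicate 1 of day 1 against 9.07 to 9.10 in the other 3, and without that heart the day 1 difference was 0.22 (adjusted p = 0.732). Trib3 read 5.96 in metformin replicate 2 of day 14 against 5.61 to 5.63 in the others, and without it the day 14 difference was 0.06 (adjusted p = 0.921). Gdf15 read 5.46 in the same heart against 5.08 to 5.11, and without it the difference was 0.12 (adjusted p = 0.888).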

How the results depend on the processing

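The count past the threshold among the 9 genes tested was 0 in each of the 7 comparisons under each of 32 or 33 alternatives (Fgf21 was tested only without the filter), and the smallest adjusted p any of them reached was 0.138, over the 6 groups without day 3 control replicate 3. Several alternatives leave a difference as it was by construction. Of 135 recomputed differences that did move, 19 had the other sign, and of 432 that moved with 1 array left out 47 did, none of them past the threshold. Asns on day 1 went from -0.16 to 0.06 with the erythroid covariate, and Chac1 on day 1 from -0.00 to 0.21 without metformin replicate 2. Centring moved the median of all tested genes by -0.10 on day 14, and the median of the 9 tested genes from 0.00 to -0.10. Of 12 same-numbered pairs of hearts, 2 had deviations correlated above 0.1 (range -0.15 to 0.11). Differently numbered pairs ran from -0.24 to 0.27. These values cannot settle whether replicate numbers pair the hearts, as no test compared the 2 kinds of pair. With a replicate block 0 of the 9 genes passed. With the block within day, Ppp1r15a lost its day 3 call (adjusted p = 0.0625) and Gars1 its mean-of-days call (0.127), and with the block across days Map1lc3b lost its call over the 6 groups (0.0583). Ppp1r15a on day 3 was also lost without the filter (0.0615), with centring (0.0563), with the day's 8 arrays alone (0.164) and with the erythroid covariate (0.0683), while its difference stayed at -0.68 to -0.71. Map1lc3b was lost after repeat quantile normalization (0.124) and without the filter (0.0567). Further pathway genes called ranged from 0 to 1 on day 3 and day 14, 1 to 5 for the mean of days and 1 to 4 over the 6 groups. All genes called ranged from 3 to 144 on day 3, 0 to 191 on day 14, 369 to 903 for the mean of days, 0 to 34 among control days and 228 to 534 over the 6 groups, against 76, 45, 708, 26 and 399. The cause was not tested. Dim signal limits what can be seen in 7 of the 10 genes.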
